A study of Mus musculus with 14 samples.

Results

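The Hes and Hey genes are listed here as transcriptional effectors of Notch signalling, although Hes6 antagonises Hes1. The Fringe genes encode glycosyltransferases that tune Notch receptors. The members described are 10 listed genes, Hes1, Hes3, Hes5, Hes6, Hey1, Hey2, Heyl, Lfng, Mfng and Rfng, found by Entrez identifier among the 16060 genes measured in the series. All 10 were present in the authors' deposited tables of both harvest days. The assay was sequencing of polyadenylated RNA from cultures of mouse embryonic stem cells on their way to neurons. Every sample came from the GLI1-FTA cell line in the A2Lox.cre background, a mouse stem cell line made for doxycycline-induced expression of a transgene from a single site. GLI1 OE samples were given doxycycline at 500 ng/ml for 48 h, from day 3 to day 5, and were then washed. Control samples were untreated, so the drug and GLI1 differed together. There were 4 GLI1 OE and 4 control samples of neural progenitor cells at day 5 (D5), and 3 GLI1 OE and 3 control samples of immature neurons at day 10 (D10), 5 days after washout. GLI1 is a zinc-finger activator of Hedgehog target genes. All samples share 1 line, and whether replicates were separate cultures is not stated, so p-values measure only the spread between these samples.

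Notch receptors are cleaved when a ligand of the Delta or Jagged type on a neighbouring cell binds them. The freed intracellular part joins the DNA-binding protein RBPJ and switches on genes of the Hes and Hey families, whose products are basic helix-loop-helix (bHLH) repressors. In the embryonic neural tube these repressors hold back proneural genes and keep cells as progenitors. Fringe enzymes add N-acetylglucosamine to fucose on the receptors and so shift which ligands can activate them.

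The sequences that follow show what distinguishes the members and what lies before their start sites. Promoter windows from RefSeq (build GRCm38.p6, 250 bases before to 50 after the start) were matched for 5 of the 10 genes, namely Hes5, Hes6, Hey2, Lfng and Rfng. Printed are Hey2, the matched gene that passed the test at D5, with Hes5 and Lfng, which did not pass and which hold the same motif. Hey2 lies at chr10:30842734-30843033 on the minus strand, Hes5 at chr4:154960673-154960972 and Lfng at chr5:140607091-140607390, both on the plus strand. Capitals mark TGGGAA, the core of RBPJ sites, and GGGTGGT, a core of GLI sites, searched on both strands (in Lfng they run into each other).
Hey2: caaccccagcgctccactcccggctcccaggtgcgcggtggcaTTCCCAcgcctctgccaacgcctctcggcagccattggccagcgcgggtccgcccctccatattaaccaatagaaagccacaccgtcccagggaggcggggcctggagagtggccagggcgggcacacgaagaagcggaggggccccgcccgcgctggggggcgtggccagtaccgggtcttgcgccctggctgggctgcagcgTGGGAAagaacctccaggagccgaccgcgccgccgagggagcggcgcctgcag
Hes5: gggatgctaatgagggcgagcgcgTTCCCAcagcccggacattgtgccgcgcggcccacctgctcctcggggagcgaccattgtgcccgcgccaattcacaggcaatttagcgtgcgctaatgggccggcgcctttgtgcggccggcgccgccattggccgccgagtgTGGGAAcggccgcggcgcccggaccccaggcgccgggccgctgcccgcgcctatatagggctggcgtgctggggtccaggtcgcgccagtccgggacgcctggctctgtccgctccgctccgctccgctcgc
Lfng: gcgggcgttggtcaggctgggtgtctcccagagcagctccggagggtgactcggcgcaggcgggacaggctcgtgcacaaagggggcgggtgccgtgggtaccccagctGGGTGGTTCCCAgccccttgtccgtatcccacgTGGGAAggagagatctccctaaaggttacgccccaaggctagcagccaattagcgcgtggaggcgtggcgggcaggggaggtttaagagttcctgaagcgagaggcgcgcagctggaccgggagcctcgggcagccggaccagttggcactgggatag

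TGGGAA or its reverse complement was present in Hey2 at positions -207 and -3 from the start, in Hes5 at -226 and -82, and in Lfng at -135 and -108. It was present in 25.6% of 32851 RefSeq promoter windows of the same length. GGGTGGT was present in Lfng, at -141, and in 4.61% of all windows. Of the sequences that Hes and Hey proteins bind, CACGTG was present in Lfng (7.15% of all windows), CACGCG in Lfng and Rfng (9.27%), and CACNAG in Hes6, Lfng and Rfng (42.5%). These words can share bases where they lie side by side. A match describes letters in these windows and does not show a bound site.

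Paralogues can share reads, so the coding stretches in which the family members are most alike are shown with their mismatches. Below is the 60-base window of the Hey2 coding sequence (bases 247 to 306) that best matched Heyl (232 to 291) and Hey1 (250 to 309), from GENCODE M21 transcripts on GRCm38. Capitals mark bases that differ from Hey2.
Hey2: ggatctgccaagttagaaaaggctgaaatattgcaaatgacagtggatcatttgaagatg
Heyl: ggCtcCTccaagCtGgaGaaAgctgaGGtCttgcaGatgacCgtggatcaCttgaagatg
Hey1: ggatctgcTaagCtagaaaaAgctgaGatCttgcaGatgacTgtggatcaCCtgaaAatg
Heyl differed from Hey2 at 13 of these 60 bases and Hey1 at 10. The same was done from Mfng (bases 406 to 465) against Lfng (577 to 636) and Rfng (421 to 480), with capitals for bases that differ from Mfng.
Mfng: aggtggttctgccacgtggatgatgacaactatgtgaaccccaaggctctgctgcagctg
Lfng: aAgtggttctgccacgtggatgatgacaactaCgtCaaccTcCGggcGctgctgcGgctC
Rfng: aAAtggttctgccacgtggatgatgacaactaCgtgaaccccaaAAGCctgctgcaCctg
Lfng differed from Mfng at 9 bases and Rfng at 8. Reads were 50 bases long. No 50-base word of a protein-coding transcript of any member was present in another member. In Hes5, 23.7% of 1224 words were also present in the overlapping gene Gm20421, which lies on the opposite strand. The reads are described as stranded, but neither the labels nor the headers say whether counting used strand, so part of the Hes5 signal is uncertain.

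The sources hold the authors' comparisons, with no value per library. Spread is therefore given as a standard error implied by the authors' p-value and log2 fold change, and the depth per sample is unknown. Gli1 served as the check on the labels: the authors' deposited tables list it at 0.57 for D10 (log2 fold change, adjusted p = 0.780) and at 4.79 for D5 (adjusted p = 1.12e-81). Fixed markers were set beside the labelled cell types, and progenitor and neuron markers were both present on both days. Progenitor markers at D10 summed to 1475.5 CPM in GLI1 OE and 1351 CPM in control samples. Neuron markers at D5 summed to 788 CPM in GLI1 OE and 1071 CPM in control samples. At D5 all 8 neural progenitor markers were measured and 0 passed in either direction, with a summed implied level of 1994 CPM in GLI1 OE and 2000 CPM in control samples. At D10 all 10 neuron markers were measured and 0 passed, at 2348 CPM in GLI1 OE and 2293 CPM in control samples, and 8 endoderm and epithelium markers summed to 1446 CPM in GLI1 OE and 1500 CPM in control samples, so transcripts of other cell types were present. Over all 8 marker lists 0 genes passed at D10. At D5, 4 of 10 neuron markers and 1 of 6 pluripotency markers fell. Of 8 genes listed as endoderm and epithelium markers, 1 rose (Foxa2) and 4 fell (Gata6, Cdh1, Sox7 and Epcam). Without Foxa2 the other 7 summed to 284 CPM in GLI1 OE and 370 CPM in control samples. Whether Foxa2 marked these cells here was not tested. In bulk RNA a change in the number of cells of a type and a change in RNA per cell cannot be told apart.

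At D5 all 3 Hey genes and the Fringe gene Mfng were higher in GLI1 OE than in control samples, while no Hes gene passed. Of the 10 members, 4 rose, 0 fell and 6 did not pass the authors' test at an adjusted p under 0.05. Over all 15108 genes at D5, 4.44% passed in either direction and 2.34% were higher. The median log2 fold change was 0.23 over the members and 0.0015 over all genes. By family it was 1.18 for the Hey genes, 0.11 for the Hes genes and -0.0029 for the Fringe genes. Whether the families differ from each other was not tested.

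**Figure D1:**
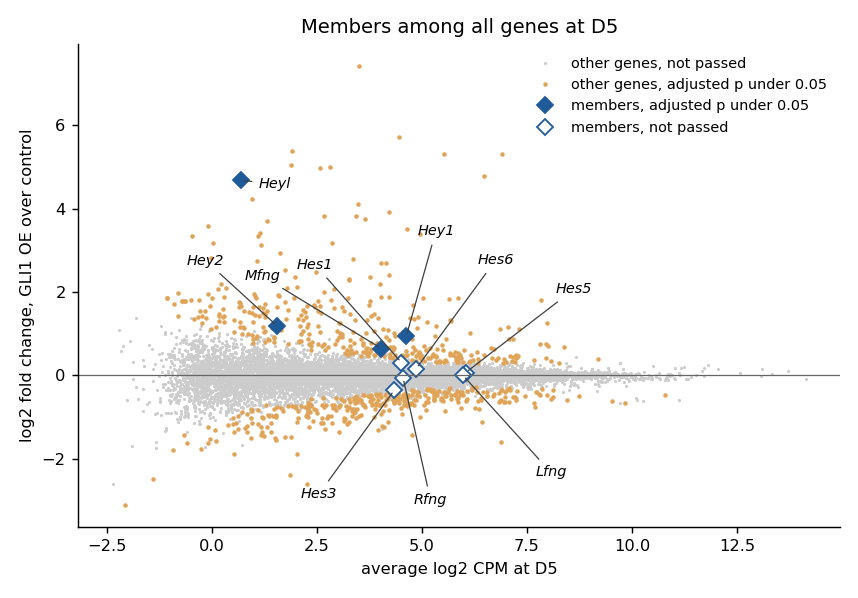
Log2 fold change at D5 (GLI1 OE over control, vertical axis) against average log2 CPM (horizontal axis) for all genes in the authors' deposited table, with the 10 members as diamonds. Heyl stands at 4.68 among weakly expressed genes, Hey2, Hey1 and Mfng stand above 0, and the open diamonds of the other 6 members lie between -0.36 and 0.31.

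Heyl, a Hey factor known from blood vessels and smooth muscle, changed most. Its log2 fold change at D5 was 4.68 in the authors' deposited table, with an implied SE of 0.40 and an adjusted p of 2.74e-28. That is a 25.6-fold higher level in GLI1 OE samples, and it ranked 10 among the 354 genes that rose. The level was low in both groups. From the average and the fold change, an implied group level was derived, which was 3.11 CPM in GLI1 OE and 0.122 CPM in control samples. At such a low control level the fitted fold depends on how the authors' test treats small counts, and the counts are not known. If the deposited average is read as a mean of log2 values instead, the levels are 8.18 CPM in GLI1 OE and 0.319 CPM in control samples.

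Hey2, which in the embryo acts in heart and artery formation, was also weakly expressed, at an implied 4.08 CPM in GLI1 OE and 1.80 CPM in control samples. The authors' deposited table gives it a log2 fold change of 1.18 at D5 (implied SE 0.23, adjusted p = 1.27e-05). Hey1, a widely used readout of Notch activity, was the most abundant Hey gene per length. It had an implied 32.5 CPM in GLI1 OE and 17.0 CPM in control samples. Its log2 fold change at D5 was 0.94 in the authors' deposited table (implied SE 0.13, adjusted p = 1.89e-10), a 1.92-fold higher level. Relative to its error Hey1 was thus better resolved than Hey2, although its fold was smaller.

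Hey genes are also active in vessels, smooth muscle and heart, so markers of these cells are given beside them. Of 11 listed endothelial markers, 6 were measured at D5, with 1 higher (Sox18) and 1 lower (Flt1). Sox18 had a log2 fold change of 7.43 in the authors' deposited table, and the median of the 6 was -0.44. The summed implied level of all 6 was 61.9 CPM in GLI1 OE and 64.5 CPM in control samples, of which Sox18 made up 22.6 CPM in GLI1 OE and 0.131 CPM in control samples. Without Sox18 the other 5 summed to 39.3 CPM in GLI1 OE and 64.4 CPM in control samples. Of 9 smooth muscle and pericyte markers, 7 were measured and 1 was higher, namely Pdgfrb at 1.64 in the authors' deposited table. The 7 summed to 378 CPM in GLI1 OE and 393 CPM in control samples. Of this, Notch3, also counted among the Notch receptors, made up 219 CPM in GLI1 OE and 199 CPM in control samples. The median log2 fold change of the 7 was -0.22, with 2 of them above 0. Of 8 cardiac markers, 4 were measured, with 0 higher and 1 lower (Gata4), at 71.0 CPM in GLI1 OE and 114 CPM in control samples. Most of that sum was Gata4, at 56.3 CPM in GLI1 OE and 96.7 CPM in control samples. Without Gata4 the other 3 summed to 14.8 CPM in GLI1 OE and 17.1 CPM in control samples. Of 8 listed presomitic and paraxial mesoderm markers only T (brachyury) was measured, so the list could not be assessed as a set. T was higher, though low in both groups, at 1.56 CPM in GLI1 OE and 0.433 CPM in control samples. Listed markers with no value were not analysed here. Whether the measured markers stood for these cell types here was not tested. The part of such cells in the Hey result was not tested either.

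No Hes gene passed at D5. Hes1, which represses proneural genes and oscillates in progenitors, had a log2 fold change of 0.31 at D5, with an unadjusted p of 0.0156 and an adjusted p of 0.216 by the authors' deposited test. The 95% interval from the implied SE ran from 0.06 to 0.55. Its implied level was 25.3 CPM in GLI1 OE and 20.4 CPM in control samples. Hes5, the main Notch effector of neural progenitors beside Hes1, had 67.3 CPM in GLI1 OE and 64.4 CPM in control samples. For Hes5 the interval of the log2 fold change ran from -0.11 to 0.24, so a change as large as that of Hey1 lies outside it. Hes3, which acts with Hes1 and Hes5 in the early neuroepithelium, had 17.8 CPM in GLI1 OE and 22.8 CPM in control samples, and its wide interval ran from -0.85 to 0.14. Hes6 differs from the others in that it antagonises Hes1 and favours neuronal differentiation. It had 30.7 CPM in GLI1 OE and 27.5 CPM in control samples, with an interval from -0.14 to 0.46.

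Among the Fringe genes, Mfng (manic fringe) was higher at D5 and the others did not pass. Mfng had an implied 20.0 CPM in GLI1 OE and 12.8 CPM in control samples. The authors' deposited table gives it a log2 fold change of 0.64 (implied SE 0.13, adjusted p = 3.81e-05), a 1.56-fold higher level. Lfng (lunatic fringe), known for the somite clock and for favouring Delta ligands, had 63.0 CPM in GLI1 OE and 63.2 CPM in control samples. Its interval ran from -0.21 to 0.21. Rfng (radical fringe) had 23.0 CPM in GLI1 OE and 23.9 CPM in control samples, with an interval from -0.36 to 0.24.

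Levels of different genes are compared per kilobase of exon, on the implied scale. In D5 GLI1 OE samples the order was Hes5 at 52.9 CPM per kb, Lfng at 27.4, Hes6 at 23.0, Hes1 at 17.2, Hey1 at 13.4, Rfng at 10.8, Mfng at 10.7, Hes3 at 9.08, Hey2 at 1.60 and Heyl at 0.686. In D5 control samples it was Hes5 at 50.6 CPM per kb, Lfng at 27.4, Hes6 at 20.6, Hes1 at 13.9, Hes3 at 11.6, Rfng at 11.3, Hey1 at 7.0, Mfng at 6.88, Hey2 at 0.704 and Heyl at 0.0268. Without values per library, neighbours in these orders cannot be told apart.

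**Figure D2:**
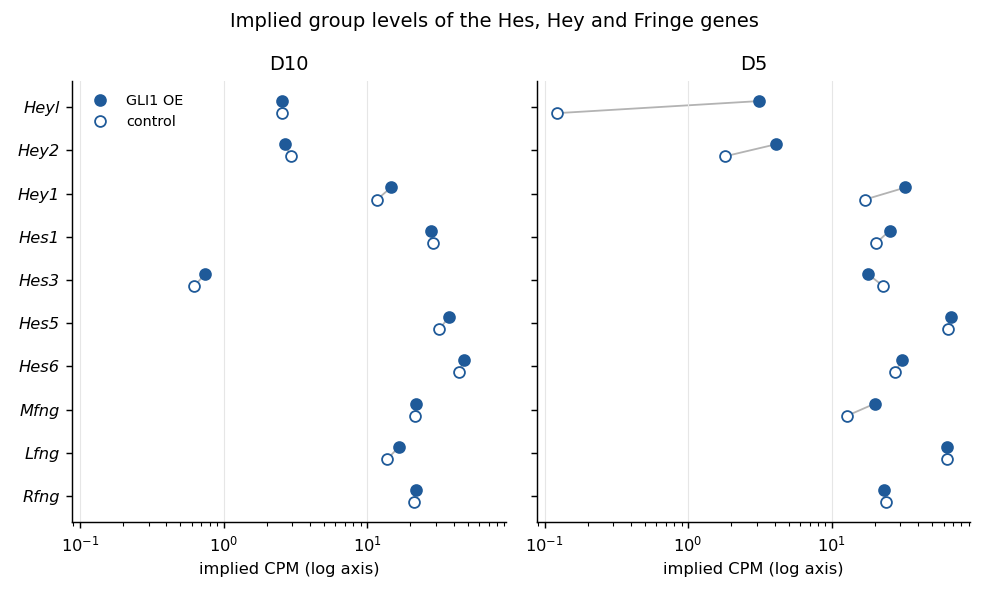
Implied level of each member in CPM (log axis) at D10 (left panel) and D5 (right panel), with GLI1 OE samples as filled points and control samples as open points. Both groups of Heyl are at 2.54 CPM at D10, while at D5 it is at 3.11 CPM in GLI1 OE and 0.122 CPM in control samples; Hes3 is under 1 CPM at D10 and between 17.8 and 22.8 CPM at D5.

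Of 59 other listed genes of the Notch pathway 54 were measured at D5, and 5 were higher, 1 lower and 48 did not pass. That is 11.1% of them, against 4.44% of all genes at D5, and whether the shares differ was not tested. Their median log2 fold change was 0.055, against 0.0015 over all genes. Receptors had 0 of 4 past the threshold (median 0.22). With p-values rescaled by expression level 2 of 4 passed (Notch1 and Notch2), and no share of all genes is given for that setting. Notch1 had 161 CPM in GLI1 OE and 129 CPM in control samples, with a log2 fold change of 0.32 and an adjusted p of 0.0812 in the authors' deposited table. Ligands also had 0 of 5 past the threshold (median 0.09), with Dll1 at 0.17 in the authors' deposited table (adjusted p = 0.632). Enzymes of receptor maturation and cleavage had 0 of 15 (median -0.0045).

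In the nuclear complex and its corepressors, 2 of 12 measured genes rose and 0 fell. Of these, the corepressor Tle1 stood at 0.34 (adjusted p = 0.0470) in the authors' deposited table. Rbpj, the DNA-binding partner of Notch, had 152 CPM in GLI1 OE and 144 CPM in control samples and did not pass. Among 10 feedback and negative regulators 1 rose, Dtx1, an E3 ligase of the Deltex family, at 1.09 in the authors' deposited table (adjusted p = 0.000520). Nrarp, a direct Notch target that limits the signal, stood at 0.23 in the authors' deposited table (unadjusted p = 0.0236, adjusted p = 0.287). Of the 2 measured relatives of the Hes family, the repressor Bhlhe40 fell, at -0.83 in the authors' deposited table (adjusted p = 0.0257).

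Proneural genes, which Hes proteins repress, did not fall at D5. Of 6 measured, 2 rose and 0 fell. In the authors' deposited table Neurog3 stood at 1.52 (adjusted p = 1.64e-06) and Neurog2 at 0.68 (adjusted p = 0.0371).

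**Figure D3:**
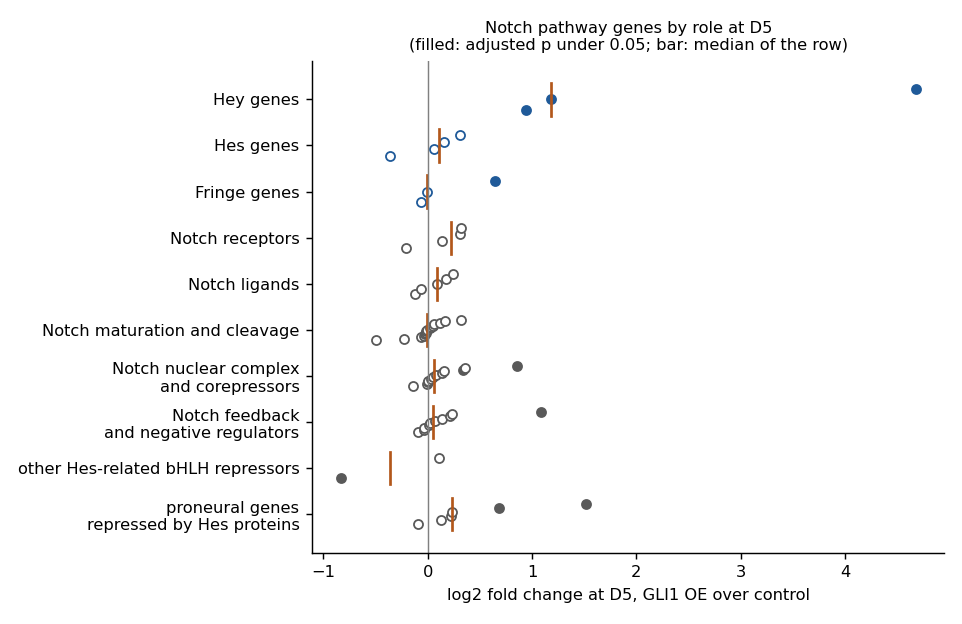
Log2 fold change at D5 (GLI1 OE over control) of each member by family and of the other Notch pathway genes by role, with filled points for an adjusted p under 0.05 and a bar at each row's median. The Hey row, from 0.94 to 4.68, is the row with every gene filled; receptors, ligands and cleavage enzymes have no filled point.

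The genes whose responses were most like those of the 4 changed members were found by distance over the log2 fold changes of both days, among 12380 candidate genes whose average log2 CPM was 1 or more on both days. These are 2 comparisons over 14 samples. Nearest to Heyl were Cldn1 (distance 0.44), Ntng1 (0.57) and the induced gene Gli1 (0.58). Heyl itself averaged 0.69 at D5, under that floor, so genes as weakly expressed as Heyl at D5 were not candidates. Nearest to Hey2 were Syt13, Aatk and Fhdc1, all within 0.116. Hey1 was nearest to Cacna1h, Habp4 and Crb1, within 0.104, and Mfng to Gm15612, Podxl2 and Gm9776, within 0.0453. Of these, Gm9776 did not pass at D5 (adjusted p = 0.0953 by the authors' deposited test).

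At D10, 5 days after washout, no member passed the test between GLI1 OE and control samples. In the authors' test 0 of 10 passed at an adjusted p under 0.05, and 0 of 10 had an unadjusted p under 0.05. Over all 15744 genes at D10, 0.0826% passed and 1.53% had an unadjusted p under 0.05. The log2 fold changes of the members ran from -0.12 to 0.32, with a median of 0.09 against 0.0027 over all genes. Of the 57 other Notch pathway genes measured at D10, 0 passed and their median was 0.032.

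Heyl had 2.54 CPM in both GLI1 OE and control samples at D10. Its p-value was 1 in the authors' deposited table, which implies no SE. Taking the median SE of 200 genes of like level, its interval ran from -0.56 to 0.56. Hey2 had 2.69 CPM in GLI1 OE and 2.93 CPM in control samples, with an interval from -0.59 to 0.35, which lies below its D5 estimate. Hey1 had the smallest p of the members at D10. It had 14.6 CPM in GLI1 OE and 11.7 CPM in control samples, a log2 fold change of 0.32 in the authors' deposited table (unadjusted p = 0.0798, adjusted p = 1). Mfng had 21.9 CPM in GLI1 OE and 21.5 CPM in control samples, with an interval from -0.31 to 0.35.

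The other members also did not pass at D10. Hes3 was weakly expressed, at 0.743 CPM in GLI1 OE and 0.627 CPM in control samples, and its wide interval ran from -0.65 to 1.14. Hes1 had 27.8 CPM in GLI1 OE and 28.7 CPM in control samples, with an interval of its log2 fold change from -0.31 to 0.22. Hes5 had 37.0 CPM in GLI1 OE and 31.7 CPM in control samples (interval -0.22 to 0.66). Hes6 had 47.4 CPM in GLI1 OE and 43.4 CPM in control samples (interval -0.24 to 0.50). A change of the size that Mfng showed at D5 lies inside the Hes5 interval and outside those of Hes1 and Hes6. Lfng had 16.7 CPM in GLI1 OE and 13.8 CPM in control samples (interval -0.14 to 0.68), and Rfng had 21.8 CPM in GLI1 OE and 21.1 CPM in control samples (interval -0.37 to 0.45).

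**Figure D4:**
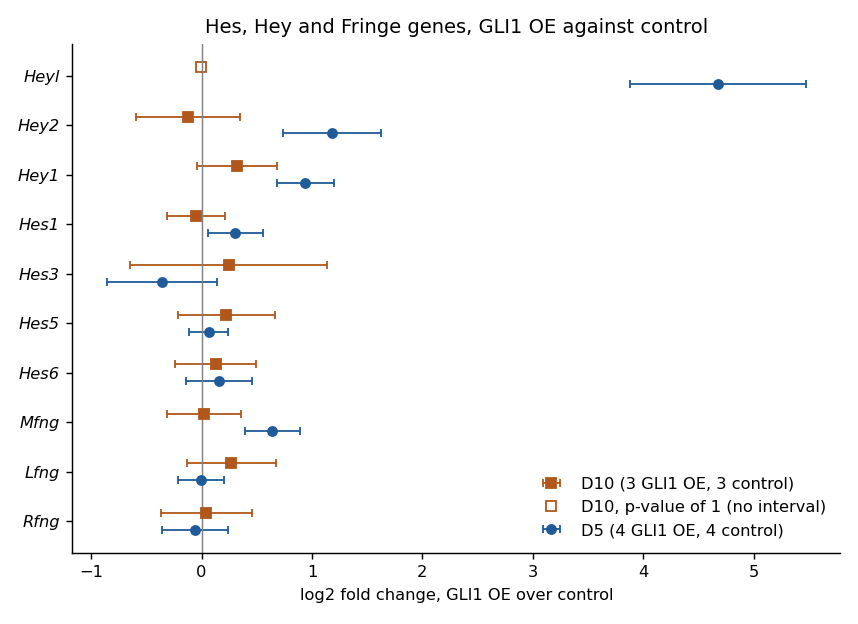
Log2 fold change of GLI1 OE over control for each member at D10 (squares) and D5 (circles), with 95% intervals from the implied SE. At D10 every interval drawn crosses 0, and the open square of Heyl has no interval of its own; at D5 the 3 Hey genes and Mfng lie right of 0 with intervals that do not reach it, as does Hes1, which did not pass after adjustment.

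The response was then compared between the days, which share no samples. The log2 fold change at D10 minus that at D5 was tested over 14792 genes in both tables, of which 1.24% passed. Of the members 1 passed, Hey2, with a difference of -1.31 (95% interval -1.95 to -0.66, adjusted p of 0.00838 by the normal test with Benjamini-Hochberg adjustment). That call ended with Holm's adjustment (adjusted p of 1) and with SEs taken from a t reference (adjusted p of 0.224). For Heyl the difference was -4.68, but the D10 p-value of 1 gives no SE and the planned test returned no call. With the SE of genes of like level in its place, an alternative chosen after seeing the data, the interval ran from -5.65 to -3.71 and the adjusted p was 3.21e-18. Hey1 differed by -0.61 (adjusted p of 0.308) and Mfng by -0.62 (adjusted p of 0.201), neither passing. With p-values rescaled by expression level they passed, at 0.0109 for Hey1 and 0.00667 for Mfng. Under that rescaling 361 of the 14792 genes passed, against 183 in the main test. The 6 members that had not passed at D5 had differences from -0.35 to 0.60, and each had an adjusted p of 1.

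Some members differed far more between the days than between GLI1 OE and control samples. These levels come from tables normalised separately and carry no test. Hes3 in control samples had 0.627 CPM at D10 and 22.8 CPM at D5, which is 36.4-fold lower at D10 and the largest downward difference of all 14792 genes in both tables. In GLI1 OE samples Hes3 had 0.743 CPM at D10 and 17.8 CPM at D5. Lfng in control samples had 13.8 CPM at D10 and 63.2 CPM at D5, a 4.57-fold lower level with rank 73 among the downward differences. Hes5 in control samples had 31.7 CPM at D10 and 64.4 CPM at D5.

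Heyl in control samples went the other way. It had 2.54 CPM at D10 and 0.122 CPM at D5, which is 20.9-fold higher at D10 and rank 20 among upward differences. In GLI1 OE samples Heyl had 2.54 CPM at D10 and 3.11 CPM at D5. With the average read as a mean of log2 values, the D5 levels of 8.18 CPM in GLI1 OE and 0.319 CPM in control samples make the control level of Heyl 7.96-fold higher at D10, with rank 120. Mfng in control samples had 21.5 CPM at D10 and 12.8 CPM at D5, and in GLI1 OE samples it had 21.9 CPM at D10 and 20.0 CPM at D5. Hey2 in control samples had 2.93 CPM at D10 and 1.80 CPM at D5, and in GLI1 OE samples 2.69 CPM at D10 and 4.08 CPM at D5. Hey1 had 11.7 CPM at D10 and 17.0 CPM at D5 in control samples, and 14.6 CPM at D10 and 32.5 CPM at D5 in GLI1 OE samples. The control level was thus lower at D10 for Hey1 and higher at D10 for Heyl, Hey2 and Mfng, while the GLI1 OE level was lower at D10 for all 3 Hey genes. Both contrasts use the D5 control samples, so the values are set side by side without a measure of their likeness.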

How the data were processed

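RNA was measured in 14 libraries of 4 groups taken from the labels. Libraries were single-end and described as stranded, per the labels' protocols. The labels and headers name no aligner, counting method, test or build. Per the file headers, the authors gave a log2 fold change, an average log2 CPM, a p-value and an FDR for each Entrez gene. That the average is on base 2 was checked by its sum on the linear scale, 1001340 CPM for D10 and 1001543 CPM for D5, and the fold change was taken to share the base. Adjusting the deposited p-values by Benjamini-Hochberg gave the deposited FDR within 3.41e-05.

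Symbols came from RefSeq (GRCm38.p6) and matched 94.6% of identifiers on either day. The implied SE is the size of the log2 fold change over the size of z from the p-value, and 95% intervals use it with a normal reference. Genes with a p-value of 1 (288 at D10, 227 at D5) have none. At D10 only 1.53% of all genes had an unadjusted p under 0.05 in the authors' test. The implied SEs at D10 may therefore be too large, and the intervals and the test between the days too cautious. The implied control level is 2m/(1 + F), where m is the mean CPM and F the fold change, and GLI1 OE is F times that, which assumes equal groups. It has no error. Exon lengths are of protein-coding transcripts in GENCODE M21. The difference between the days was divided by the root of the summed squared SEs, two-sided and adjusted over all genes.

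The members, the 7 pathway lists and the 8 marker lists were chosen with earlier results of these data known. Named are all members, called genes of the pathway lists (up to 4 a list), Notch1, Dll1, Rbpj, Nrarp, Neurog2, Gli1, called markers where they bear on a member, and 3 nearest genes per changed member. Notch2, Notch3 and the marker sums without Sox18, Gata4 or Foxa2 were added after their values were seen. So were the progenitor sum at D10 and the neuron sum at D5. Some items that this rule names are not reported here. Alternatives were other thresholds (0.01 and 0.1), Holm's adjustment, an average log2 CPM of at least 1, a 2-fold minimum, and p-values rescaled in bins of about 500 genes. The steps were tested on simulated data. Python 3.11.15 with numpy 2.4.6, scipy 1.17.1 and pandas 2.3.3 was used.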

Additional observations from a re-analysis of the deposited data

Results flagged for a closer look

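The response of Hey2 to GLI1 OE differed between the harvest days in a test of the difference itself. Its log2 fold change at D10 minus that at D5 was -1.31 (adjusted p of 0.00838 by the normal test with Benjamini-Hochberg adjustment). That call was lost with Holm's adjustment and with SEs from a t reference (adjusted p of 0.224). The implied level was 2.69 CPM in GLI1 OE and 2.93 CPM in control samples at D10, and 4.08 CPM in GLI1 OE and 1.80 CPM in control samples at D5.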

How the results depend on the processing

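The 4 members that rose at D5 passed at thresholds of 0.01 and 0.1, with Holm's adjustment and with rescaled p-values. A 2-fold minimum left 2, Heyl and Hey2, and an average log2 CPM of at least 1 removes Heyl before testing and left 3. At D10 the member count was 0 in every alternative run. The count of members differing between the days was 1, and it was 0 with Holm's adjustment, 0 with SEs from a t reference, 3 with rescaled p-values (Hey1, Hey2 and Mfng) and 2 with the borrowed SE, which was added after seeing the data (Hey2 and Heyl). Over all 14792 genes that count was 183 in the main test, 89 with Holm's adjustment and 19 with the t reference. It was 361 with rescaled p-values and 189 with the borrowed SE. For the other Notch pathway genes, 6 passed at D5, and 3 did at a threshold of 0.01, 2 with Holm's adjustment, 2 with a 2-fold minimum, 5 once weakly expressed genes (average log2 CPM under 1) were dropped, 7 at a threshold of 0.1 (Notch1 added) and 8 with rescaled p-values (Notch1 and Notch2 added). At D10 the count was 0, and 1 (Neurod4) with rescaled p-values. For D5 and for D10 the shares of all genes under these alternatives are not given here. Leaving out a replicate was not run, since no file used here gives a value per library. No paired analysis was possible because no file used here gives a value per library, although the labels number the replicates. Reading the deposited average as a mean of log2 CPM moved the D5 level of Heyl in both groups by over 1.5 times. Depth per sample is unknown, so how far it limits Heyl, Hey2 and Hes3 at D10 cannot be given.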
